A study of Mus musculus with 2 samples.

Results

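Transcripts of 10 genes that set passage through G1 were measured in single cells of the E14.5 mouse fetal liver (FL). The genes are the D-type cyclins Ccnd1, Ccnd2 and Ccnd3, their kinases Cdk4 and Cdk6, the inhibitors Cdkn1a, Cdkn1b, Cdkn2c and Cdkn2d, and the pocket protein Rb1. They were chosen by name from 32285 genes, and all 10 had UMIs (unique molecular identifiers, each counting 1 captured transcript) in both libraries. Embryos of the CD1 strain were either wild type (WT) or knockout (KO) for Nfkbia, the gene of the NF-κB inhibitor IκBα. The KO line carries a targeted germline allele (Nfkbia tm1Bal), which the blood cells share with all other cells of the embryo. Lineage-depleted FL cells of 2 WT and of 3 KO embryos were pooled by genotype, sorted as LSK cells (lineage-negative, Sca1-positive, Kit-positive, the gate that holds blood stem and progenitor cells) and made into 1 droplet 3′ library per genotype. The sample titles name LT-HSCs (long-term haematopoietic stem cells), whereas the cell type label names LSK.

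With 1 library per genotype there is no replicate, so no test of genotype was possible. All intervals below are exact 95% intervals that cover counting error only. Those of levels and ratios leave out variation between cells too. UMIs of the cells of a type were summed within a library and given as CPM, the count scaled to a total of 1e+06 UMIs of those cells.

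A resting cell enters the cycle when D cyclins, whose genes respond to mitogens and cytokines, activate Cdk4 and Cdk6. The active kinases phosphorylate the retinoblastoma protein, which then releases the E2F factors that switch on the genes of DNA replication. INK4 inhibitors (Cdkn2c, Cdkn2d) bind Cdk4 and Cdk6 directly, CIP/KIP inhibitors (Cdkn1a, Cdkn1b) bind cyclin-kinase complexes, and in the blood system this switch is known for holding stem cells in or out of quiescence.

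The WT library held 3458 cells after filtering with a median of 28065 UMIs, and the KO library 4417 cells with a median of 19560. Nfkbia itself had 1478 UMIs in WT and 7 in KO. Cells with Y-linked but no Xist transcripts made up 0.116% of the WT and 17.4% of the KO library, so the KO pool alone held male cells in number, and 7 cell barcodes occurred in both libraries. Cells were put into types by how many markers from a set list they held. The gates took 88.8% of the WT and 87.4% of the KO cells, among them 586 and 499 stem-gated cells (at least 3 of 8 markers such as Hlf, Mecom and Procr). The stem-gated cells, 16.9% of WT and 11.3% of KO cells, had medians of 17545 and 12594 UMIs. Erythroid-gated cells (at least 5 of 9 markers such as Klf1, Epor and Gata1) were the most numerous, at 48.8% and 53.1% of all cells, and Ly6a, which encodes the sorted antigen Sca1, stood at 25.2 and 29.6 CPM in stem-gated against 1.02 and 1.07 CPM in these cells, so the sort label and the RNA of the erythroid-gated cells differ. Gates for macrophage, endothelial and hepatocyte markers also took cells. Of the macrophage-gated cells, 82.1% in WT and 81.4% in KO met the gate of another type too. So did 56.7% and 50.7% of the endothelial-gated and 47.6% and 48.6% of the hepatocyte-gated cells. Values for these gates, including their levels below, may thus come in part from mixed cells or droplets, which was not tested.

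The D cyclin genes lie on different chromosomes of GRCm38, Ccnd1 at chr7:144929931-144939925 on the minus strand, Ccnd2 at chr6:127125162-127152193 on the minus strand and Ccnd3 at chr17:47505051-47599691 on the plus strand. The kinase genes Cdk4 (chr10:127063534-127067920) and Cdk6 (chr5:3341485-3531008) are both on the plus strand. The INK4 genes Cdkn2c (chr4:109660876-109667189) and Cdkn2d (chr9:21288410-21291407) are on the minus strand, the CIP/KIP genes Cdkn1a (chr17:29090976-29100727) and Cdkn1b (chr6:134920401-134925513) on the plus strand, and Rb1 (chr14:73183673-73325822) on the minus strand. Overlaps with genes on the opposite strand occur for Ccnd1 (LTO1), Ccnd2 (Gm43126 and 9330179D12Rik), Ccnd3 (Bysl), Cdk4 (Tspan31), Cdk6 (Gm17590 and Gm42435), Cdkn1a (AC167363.2) and Rb1 (Rcbtb2 and Lpar6), and Rb1 overlaps Gm17233 on its own strand, so Rb1 counts could be shared with it.

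The promoters of 4 members are shown because the kinases were the members with more transcripts in stem-gated cells with Mki67 or Top2a in both libraries, and the INK4 genes varied widely between cell types. Each is the 250 bases before the RefSeq start on GRCm38.p6, printed 5′ to 3′ on the gene's strand. The Cdk6 and Cdkn2c windows lie within the gene spans given above, and the Cdkn2d window partly so. Those spans begin upstream of the RefSeq starts used here. Capitals in the kinase windows, Cdk4 at chr10:127063285-127063534 and Cdk6 at chr5:3343643-3343892 (both plus), mark CACGTG, the E-box read by MYC and USF proteins, which is the same on both strands.
Cdk4: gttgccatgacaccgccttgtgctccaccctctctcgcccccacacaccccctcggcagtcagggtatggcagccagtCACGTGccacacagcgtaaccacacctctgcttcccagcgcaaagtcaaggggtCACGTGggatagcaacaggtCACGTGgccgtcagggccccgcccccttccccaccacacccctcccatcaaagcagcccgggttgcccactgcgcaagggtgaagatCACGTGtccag
Cdk6: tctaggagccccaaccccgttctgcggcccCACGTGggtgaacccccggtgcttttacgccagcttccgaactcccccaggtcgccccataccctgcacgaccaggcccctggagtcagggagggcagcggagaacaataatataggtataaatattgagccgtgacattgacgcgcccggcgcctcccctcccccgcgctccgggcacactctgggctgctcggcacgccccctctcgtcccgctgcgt
The Cdk4 window held 4 CACGTG words, as did 0.0213% of 32851 mouse promoter windows of this length (at least 4), and the Cdk6 window held 1, as did 6.02% (at least 1). Capitals in the INK4 windows, Cdkn2c at chr4:109666757-109667006 and Cdkn2d at chr9:21291210-21291459 (both minus), mark GGGCGG, the GC box read by SP1 and related factors, on either strand.
Cdkn2c: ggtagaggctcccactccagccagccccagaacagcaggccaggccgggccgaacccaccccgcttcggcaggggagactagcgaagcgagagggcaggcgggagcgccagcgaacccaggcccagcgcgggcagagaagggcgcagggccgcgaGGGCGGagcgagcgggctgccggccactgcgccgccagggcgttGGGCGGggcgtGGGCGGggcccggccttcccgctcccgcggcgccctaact
Cdkn2d: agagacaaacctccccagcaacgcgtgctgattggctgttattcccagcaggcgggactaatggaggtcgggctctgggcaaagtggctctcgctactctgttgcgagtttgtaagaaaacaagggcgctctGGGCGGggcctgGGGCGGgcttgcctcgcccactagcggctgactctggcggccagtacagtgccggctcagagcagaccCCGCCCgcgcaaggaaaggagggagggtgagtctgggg
Both printed INK4 windows held 3 GC boxes, 1 of those in Cdkn2d being on the other strand, and 8.47% of all windows held at least 3. A second Cdkn2c window, at chr4:109665373-109665622 and not printed, held 0. These matches describe letters only. Windows were at hand for 7 of the 10 members, and Ccnd1, Ccnd2 and Rb1 had none.

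The D cyclins divided the cell types among themselves. Ccnd1 was highest in endothelial-gated cells (322 CPM in WT and 306 in KO), followed by hepatocyte-gated (243 and 256) and lymphoid-gated cells (214 and 210). In stem-gated cells it stood at 167 CPM (159–174) in WT and 157 (148–167) in KO. Its lowest level was in erythroid-gated cells, at 12.2 and 14.2 CPM, so the highest type exceeded the lowest 26.4-fold in WT and 21.6-fold in KO.

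Ccnd2, the D cyclin best known for answering to cytokines in blood cells, was highest in monocyte-gated cells in WT (189 CPM) and in lymphoid-gated cells in KO (173 CPM), with overlapping intervals of these gates in both libraries. Stem-gated cells stood at 151 CPM (144–158) in WT and 149 (140–158) in KO. Hepatocyte-gated cells were lowest, at 31.4 and 47.4 CPM, with the erythroid-gated cells at 56.3 and 61.8.

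Ccnd3, the D cyclin known for setting the number of terminal divisions in the red cell line, went the other way. It was highest in megakaryocyte-gated cells, at 262 CPM (239–288) in WT and 300 (280–320) in KO, and in erythroid-gated cells, at 261 (257–265) and 294 (290–299), with overlapping intervals. Stem-gated cells stood at 129 and 138 CPM, and lymphoid-gated cells were lowest at 107 and 104.

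As shares of the UMIs of the 3 D cyclins, stem-gated cells were close to evenly divided, with 37.3% Ccnd1, 33.9% Ccnd2 and 28.8% Ccnd3 in WT and 35.5%, 33.5% and 31.0% in KO. The total of the 3 was 446 CPM in WT and 444 in KO. Erythroid-gated cells were made up of 3.7% Ccnd1, 17.1% Ccnd2 and 79.2% Ccnd3 in WT and of 3.8%, 16.7% and 79.5% in KO. These are shares of captured 3′ ends, which do not scale with transcript length, although capture can differ between genes. The UMIs of the 3 cyclins were also counted cell by cell. With each cell thinned to 8500 UMIs, 32.9% of 560 WT and 31.1% of 399 KO stem-gated cells had UMIs of all 3 D cyclins, against 1.93% and 2.55% of erythroid-gated cells, of which 65.2% and 66.7% had exactly 1 of the 3. Free RNA was not estimated for these genes, and the red cell transcript Hbb-bt stood at 1302 and 1030 CPM in stem-gated cells.

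**Figure D1:**
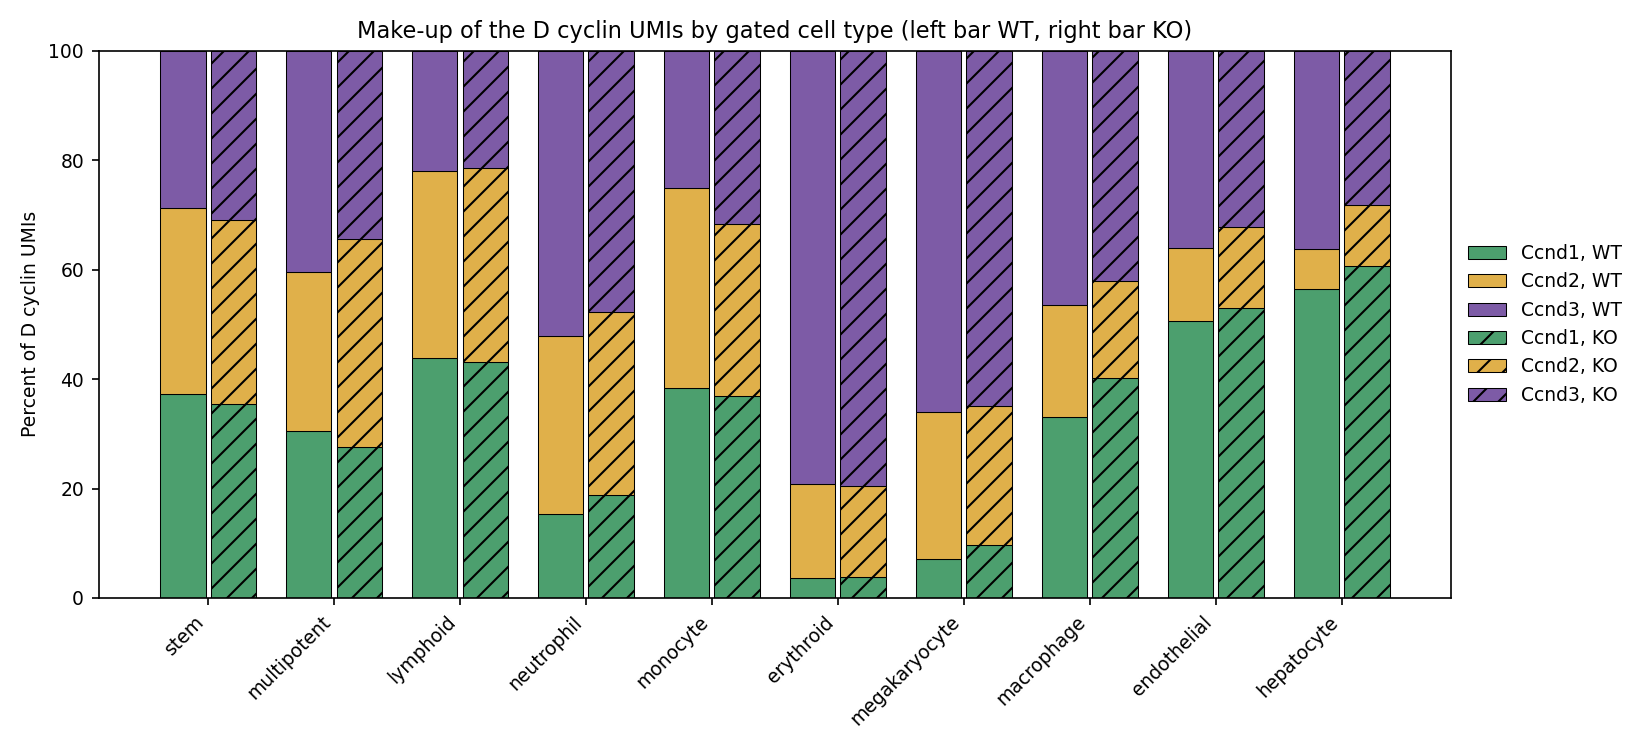
Stacked bars give the percent of D cyclin UMIs (y axis) from Ccnd1, Ccnd2 and Ccnd3 in each gated cell type (x axis), WT and KO side by side. Ccnd3 made up 79.2% in WT and 79.5% in KO erythroid-gated cells, while stem-gated cells held between 28.8% and 37.3% of each cyclin.

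Of the kinases, Cdk4 was the more even across types. It was highest in multipotent-gated cells at 702 and 676 CPM, and lowest in hepatocyte-gated cells at 337 CPM in both libraries. Multipotent-gated cells had at least 2 of Cd34, Cd48 and Cd27, no UMI of Hlf or Mecom and no marker set of another type. Stem-gated cells held 523 CPM (510–537) in WT and 550 (532–567) in KO.

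Cdk6, which is known for restraining or permitting stem cell exit from quiescence, was highest in neutrophil-gated cells at 194 and 168 CPM. Lymphoid-gated cells followed at 146 and 166, and in KO the intervals of these neighbours overlapped. Stem-gated cells held 95.5 CPM (89.9–101) in WT and 87.6 (80.8–94.8) in KO, with erythroid-gated cells at 87.1 (84.8–89.4) and 81.1 (78.9–83.4). Cdk4 made up 84.6% and 86.3% of the UMIs of both kinases in stem-gated cells, and its share was lowest in neutrophil-gated cells at 73.3% and 74.6%.

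Among the INK4 genes, Cdkn2d (p19INK4d) was highest in megakaryocyte-gated cells, at 150 CPM (132–169) in WT and 207 (191–225) in KO. Stem-gated cells held 51.2 (47.1–55.5) and 52.3 (47.0–57.9) CPM, above the 38.9 (37.4–40.4) and 43.1 (41.5–44.8) of the erythroid-gated cells. Hepatocyte-gated cells were lowest at 22.2 and 19.1 on 41 UMIs each. Megakaryocyte-gated cells thus stood apart from every other gate in both libraries, with no overlap of the intervals.

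Cdkn2c (p18INK4c), an inhibitor known for limiting stem cell self-renewal in the adult, was nearly missing from stem-gated cells, with 9 UMIs (0.805 CPM) in WT and 4 (0.574 CPM) in KO. Erythroid-gated cells held 11.4 and 11.7 CPM from 726 and 716 UMIs. Endothelial-gated cells were highest at 25.2 and 26.8 CPM, on 28 and 33 UMIs. Macrophage-gated cells held 19.7 and 15.2 CPM on 26 UMIs each, while the lymphoid-gated and multipotent-gated cells had at most 3 UMIs.

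Cdkn1b (p27KIP1), a brake on stem and progenitor division, stood at 20.7 CPM (18.2–23.6) in WT and 19.4 (16.3–22.9) in KO stem-gated cells. Multipotent-gated cells held 5.28 CPM in WT and 9.71 in KO, and neutrophil-gated cells 7.49 and 7.22. Stem-gated cells thus lay above both groups, the lowest of the gates, without overlap of the intervals. They did not stand apart from the rest, since endothelial-gated cells held 20.7 and 19.5 CPM and monocyte-gated cells 18.7 in both libraries. The intervals of these gates and of the hepatocyte-gated, macrophage-gated and lymphoid-gated cells overlapped that of the stem-gated cells in both libraries. Cdkn1a (p21CIP1), the inhibitor induced by p53, was low everywhere, with 3.49 and 4.02 CPM in stem-gated cells on 39 and 28 UMIs. Its highest level was in macrophage-gated cells at 19.7 and 50.3 CPM, and its lowest was in erythroid-gated cells at 1.10 and 1.75 CPM.

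Rb1 was low in stem-gated cells, at 6.17 CPM (4.80–7.81) in WT and 5.17 (3.62–7.16) in KO. Megakaryocyte-gated cells held 28.5 and 25.9 CPM and erythroid-gated cells 20.1 and 19.0, the gates in which Ccnd3 was highest. Endothelial-gated cells were at a like level, 27.1 and 22.7 CPM, on 30 and 28 UMIs.

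**Figure D2:**
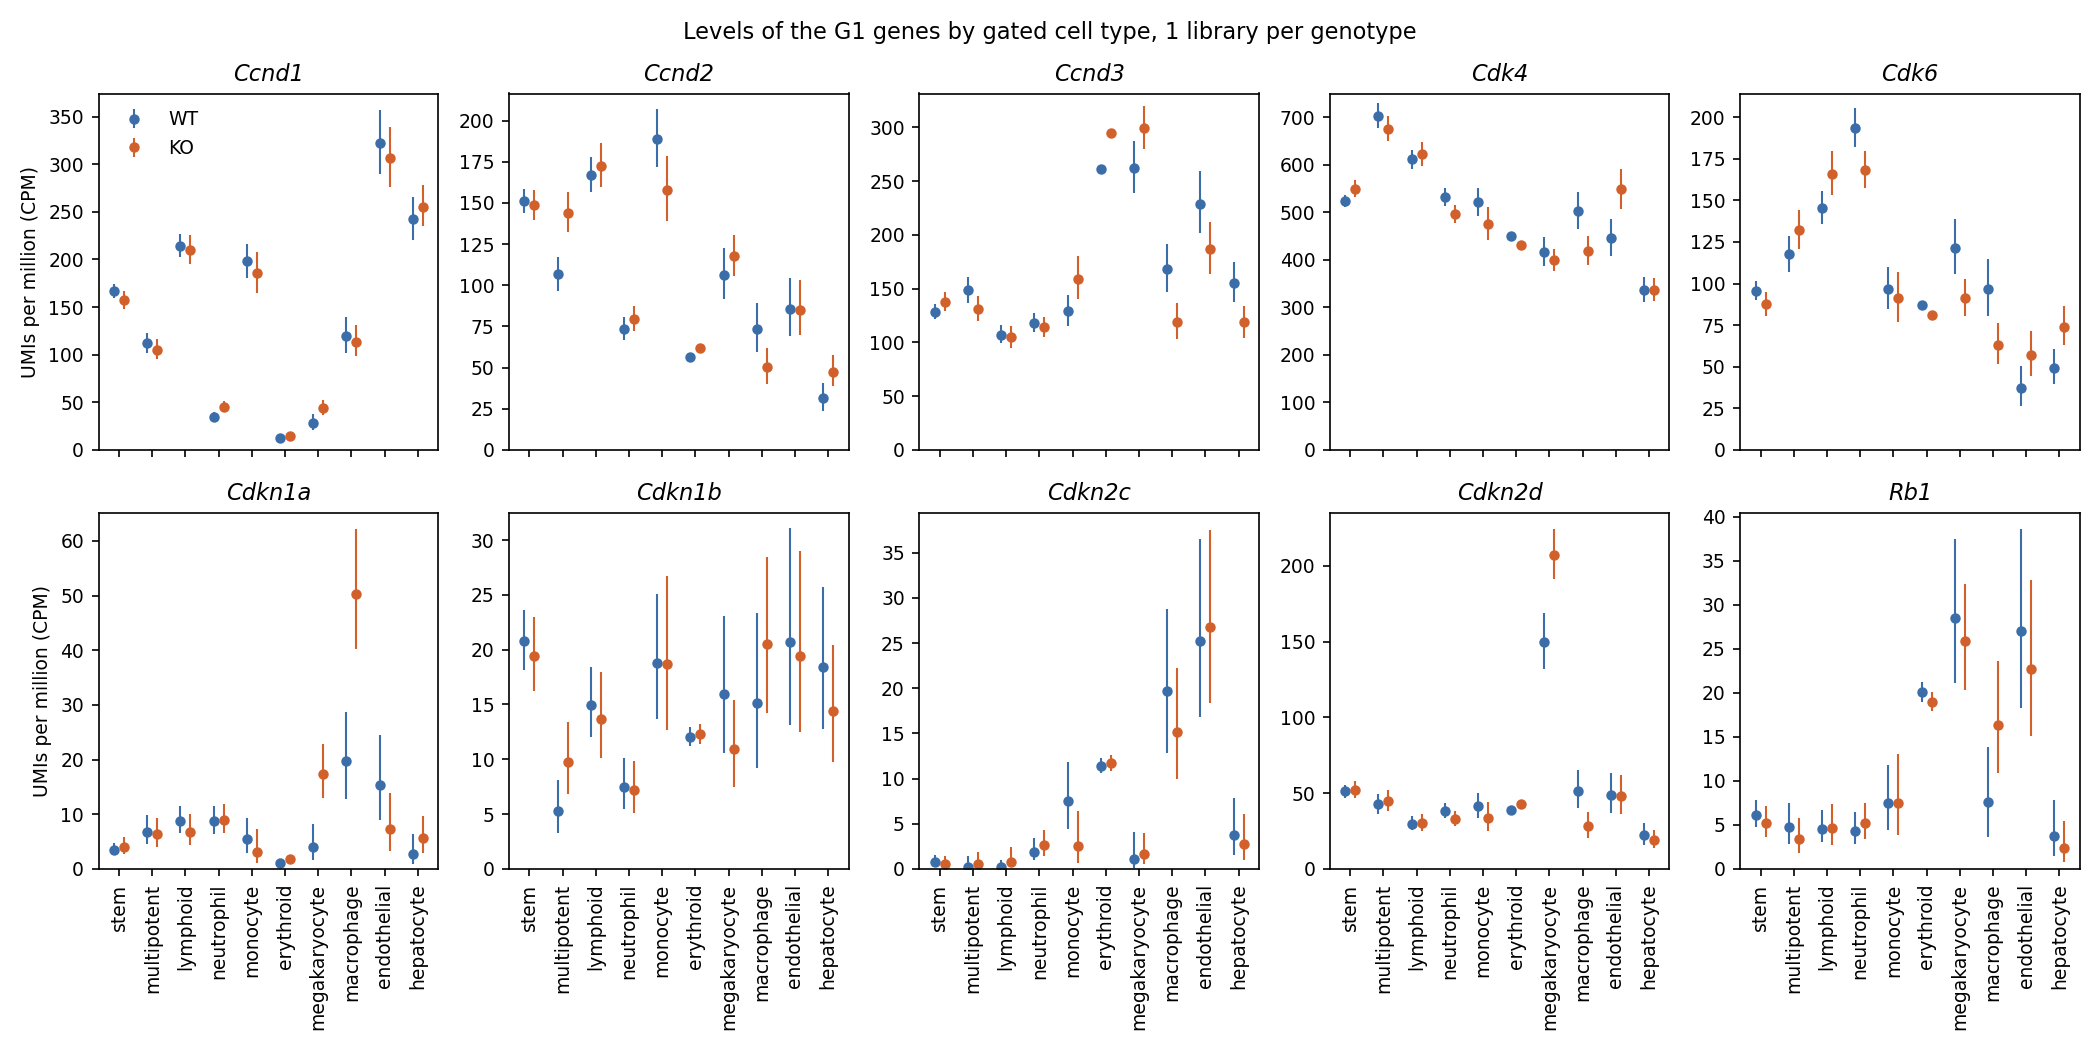
Each panel gives the level of a member in CPM (y axis, from 0) in every gated cell type (x axis) for WT and KO, with bars for the exact 95% counting interval. Ccnd1 ranges from 322 CPM in endothelial-gated to 12.2 CPM in erythroid-gated WT cells, while Ccnd3 is at 261 CPM in the latter.

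Mki67 and Top2a, which are transcribed in dividing cells, were used to ask how the members vary with the cycle within a type. As sequenced, 81.6% (78.2–84.6) of WT and 84.2% (80.7–87.3) of KO stem-gated cells had a UMI of either gene. Thinned to 8500 UMIs, which left out 26 WT and 100 KO cells below that depth, the shares were 77.9% (74.2–81.2) of 560 and 94.2% (91.5–96.3) of 399. Thinned to 4000 UMIs they were 66.5% (62.5–70.3) and 74.1% (70.0–77.9). Depth moved with the split, since cells with a UMI had medians of 19131 total UMIs in WT and 13732 in KO, and those without 11430 and 7405. No gate was free of these transcripts, the lowest share as sequenced outside the stem gate being 63.3% in WT endothelial-gated cells, so there was no measure of free RNA for the pair.

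In stem-gated cells the kinases were higher in the cells with Mki67 or Top2a and the D cyclins were lower. Cdk6 stood at 100 CPM in WT cells with either UMI and 58.8 CPM in those without, and at 92.1 and 39.0 CPM in KO, log2 differences of 0.77 (0.43–1.13) and 1.24 (0.64–1.91). For Cdk4 the levels were 531 with and 467 without in WT, and 565 and 387 in KO, log2 differences of 0.18 (0.06–0.31) and 0.55 (0.35–0.75). Both kinases lay on the same side in both libraries with intervals that left out 0. Ccnd2 was the member that was lower in both libraries beyond counting error, at 143 CPM with and 214 without in WT and at 143 and 212 in KO, log2 differences of -0.59 (-0.77 to -0.39) and -0.57 (-0.84 to -0.29). For Ccnd1 the WT log2 difference was -0.34 (-0.53 to -0.15) and the KO one -0.15 (-0.44 to 0.16). For Ccnd3 it was -0.50 (-0.70 to -0.29) and -0.20 (-0.51 to 0.13), so the KO intervals of both held 0.

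The inhibitors gave wider intervals. Cdkn2d was at 53.1 CPM with and 36.4 without in WT, a log2 difference of 0.55 (0.11–1.01), and at 52.1 and 54.3 in KO, a log2 difference of -0.06 (-0.59 to 0.51). Cdkn1b had log2 differences of -0.29 (-0.84 to 0.29) and -0.32 (-1.13 to 0.59). Rb1 had 9 UMIs in the WT cells without Mki67 or Top2a and 3 in the KO cells, Cdkn1a 5 and 0, and Cdkn2c 0 in both, where 3 UMIs would be 2.32 and 5.09 CPM.

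A 1.5-fold mark was applied to genes with at least 200 UMIs in the sum. In WT, 1 of 7 members (Cdk6) was higher with Mki67 or Top2a, beside 9.29% of 5750 genes, and 1 (Ccnd2) was lower, beside 4.28%. In KO, 1 of 6 was higher (Cdk6), beside 12.9% of 4306 genes, and 0 were lower, beside 4.92%, Ccnd2 being just short of the mark at 0.674 of the level without. The members' median log2 difference was -0.29 in WT and -0.11 in KO, and that of all genes 0.04 and 0.09. Among other genes of the cycle, 11 of 18 S phase targets of E2F were higher 1.5-fold in each library, as were 7 of 14 later cyclins and kinases in WT and 7 of 12 in KO. Cdkn1c (p57KIP2), the CIP/KIP inhibitor tied to stem cell quiescence, stood at 87.6 CPM with and 207 without in WT and at 85.2 and 141 in KO, log2 differences of -1.24 and -0.73. Of the pocket proteins and E2F factors, 2 of 9 were higher in WT (Rbl1, E2f8) and 3 of 6 in KO (E2f3, Tfdp1, E2f8), with Tfdp2 lower in KO, while 0 of 3 p53 targets passed the mark in either library. Of the other INK4 genes, Cdkn2a and Cdkn2b had 0 UMIs in stem-gated cells of either library.

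**Figure D3:**
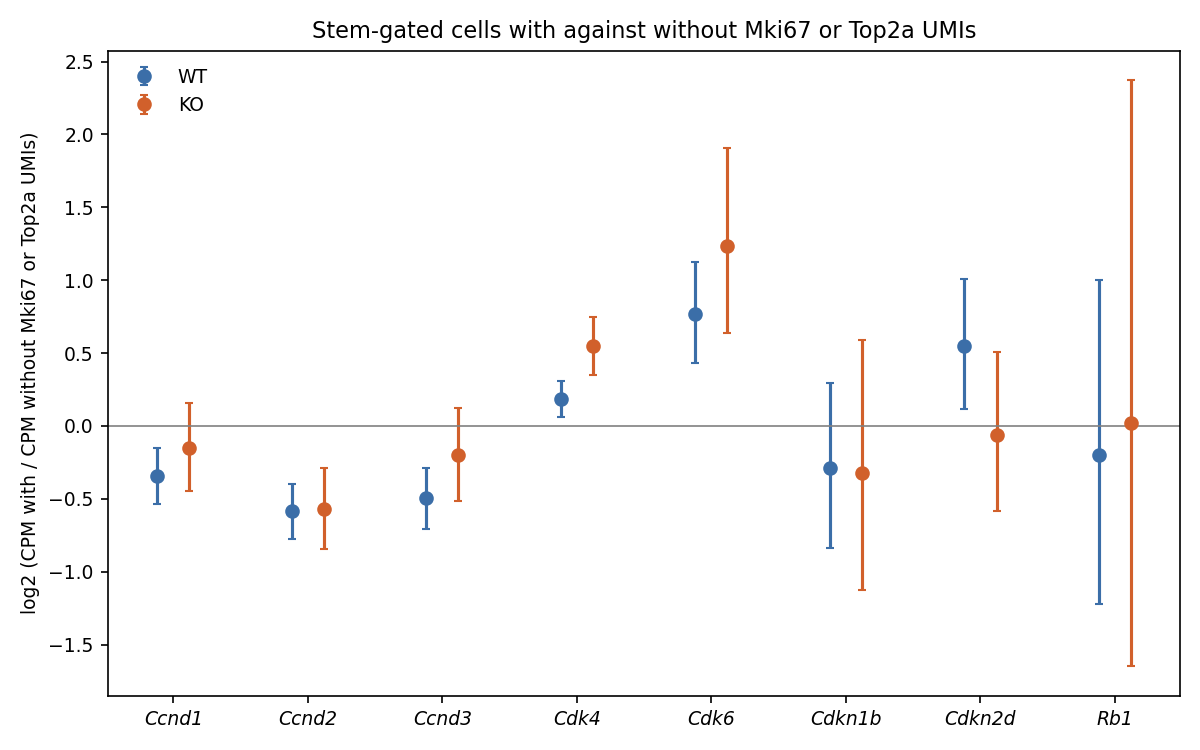
Points give the log2 ratio of CPM between stem-gated cells with and without Mki67 or Top2a UMIs (y axis) for 8 members (x axis), WT and KO apart, and bars the exact 95% counting interval. Cdk4 and Cdk6 lie above 0 and Ccnd2 below 0 in both libraries with intervals that leave out 0, while Cdkn2d is above 0 in WT (0.55) and near it in KO (-0.06).

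A finer division was made on cells thinned to 8500 UMIs, by 0, 1 to 2, 3 to 9 and 10 or more UMIs of Mki67 and Top2a together. The WT stem-gated groups held 124, 113, 199 and 124 cells, and the KO groups 23, 77, 185 and 114. Ccnd2 levels over these groups were 227, 183, 131 and 128 CPM in WT and 235, 173, 146 and 136 in KO, highest where the proliferation transcripts were not found. Ccnd3 went from 175 CPM in the lowest to 87.3 in the highest group in WT and from 205 to 132 in KO. Cdk6 ran from 56.0 to 93.9 CPM in WT and from 40.9 to 89.8 in KO, where the lowest group held only 8 UMIs (17.7–80.6). Cdk4 had no such order in WT, where it stood at 472, 571, 565 and 470 CPM. Cdkn2d ran from 28.5 to 69.3 CPM in WT and from 40.9 to 67.1 in KO, where the lowest group held 8 UMIs in 23 cells and its interval (17.7–80.6) took in the level of the highest.

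In erythroid-gated cells the same division gave the reverse order for Ccnd3 and Cdk6. Ccnd3 stood at 241 CPM in WT cells with 0 UMIs of the pair and 433 in those with 10 or more, and at 215 and 448 in KO. Cdk4 went from 542 to 276 CPM in WT and from 528 to 272 in KO, and Cdk6 from 96.1 to 55.7 and from 72.8 to 40.9. Thus this D cyclin was higher and the kinases lower where Mki67 and Top2a were highest. Cdkn2d ran from 14.3 to 108 CPM in WT and from 18.6 to 101 in KO, the same direction as in stem-gated cells. Rb1 ran from 10.04 to 43.1 CPM, Cdkn2c from 7.17 to 25.8 and Cdkn1b from 11.5 to 22.3 in WT, on 5 to 8 UMIs in the lowest group. That group held 82 WT and 76 KO cells, and 401 and 590 cells had 10 or more.

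Cdk6 was also divided this way in other progenitor gates. In multipotent-gated cells it stood at 60.5 CPM in WT cells with 0 UMIs of the pair and 163 in those with 10 or more, and at 64.2 and 155 in KO. In neutrophil-gated cells it was at 143 and 229 CPM in WT and at 74.3 and 254 in KO. In lymphoid-gated cells it stood at 82.4 (33.1–169.7) and 162 (129–202) CPM in WT and at 67.2 (18.3–172) and 179 (146–218) in KO, and in monocyte-gated cells at 70.6 and 147 CPM in WT and 94.1 and 86.7 in KO. The monocyte-gated group with 0 UMIs of the pair held only 5 cells in each library, so its Cdk6 levels rest on very few UMIs. The end groups of these 4 gates held from 5 to 65 cells, and no test was made of the difference between gates.

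**Figure D4:**
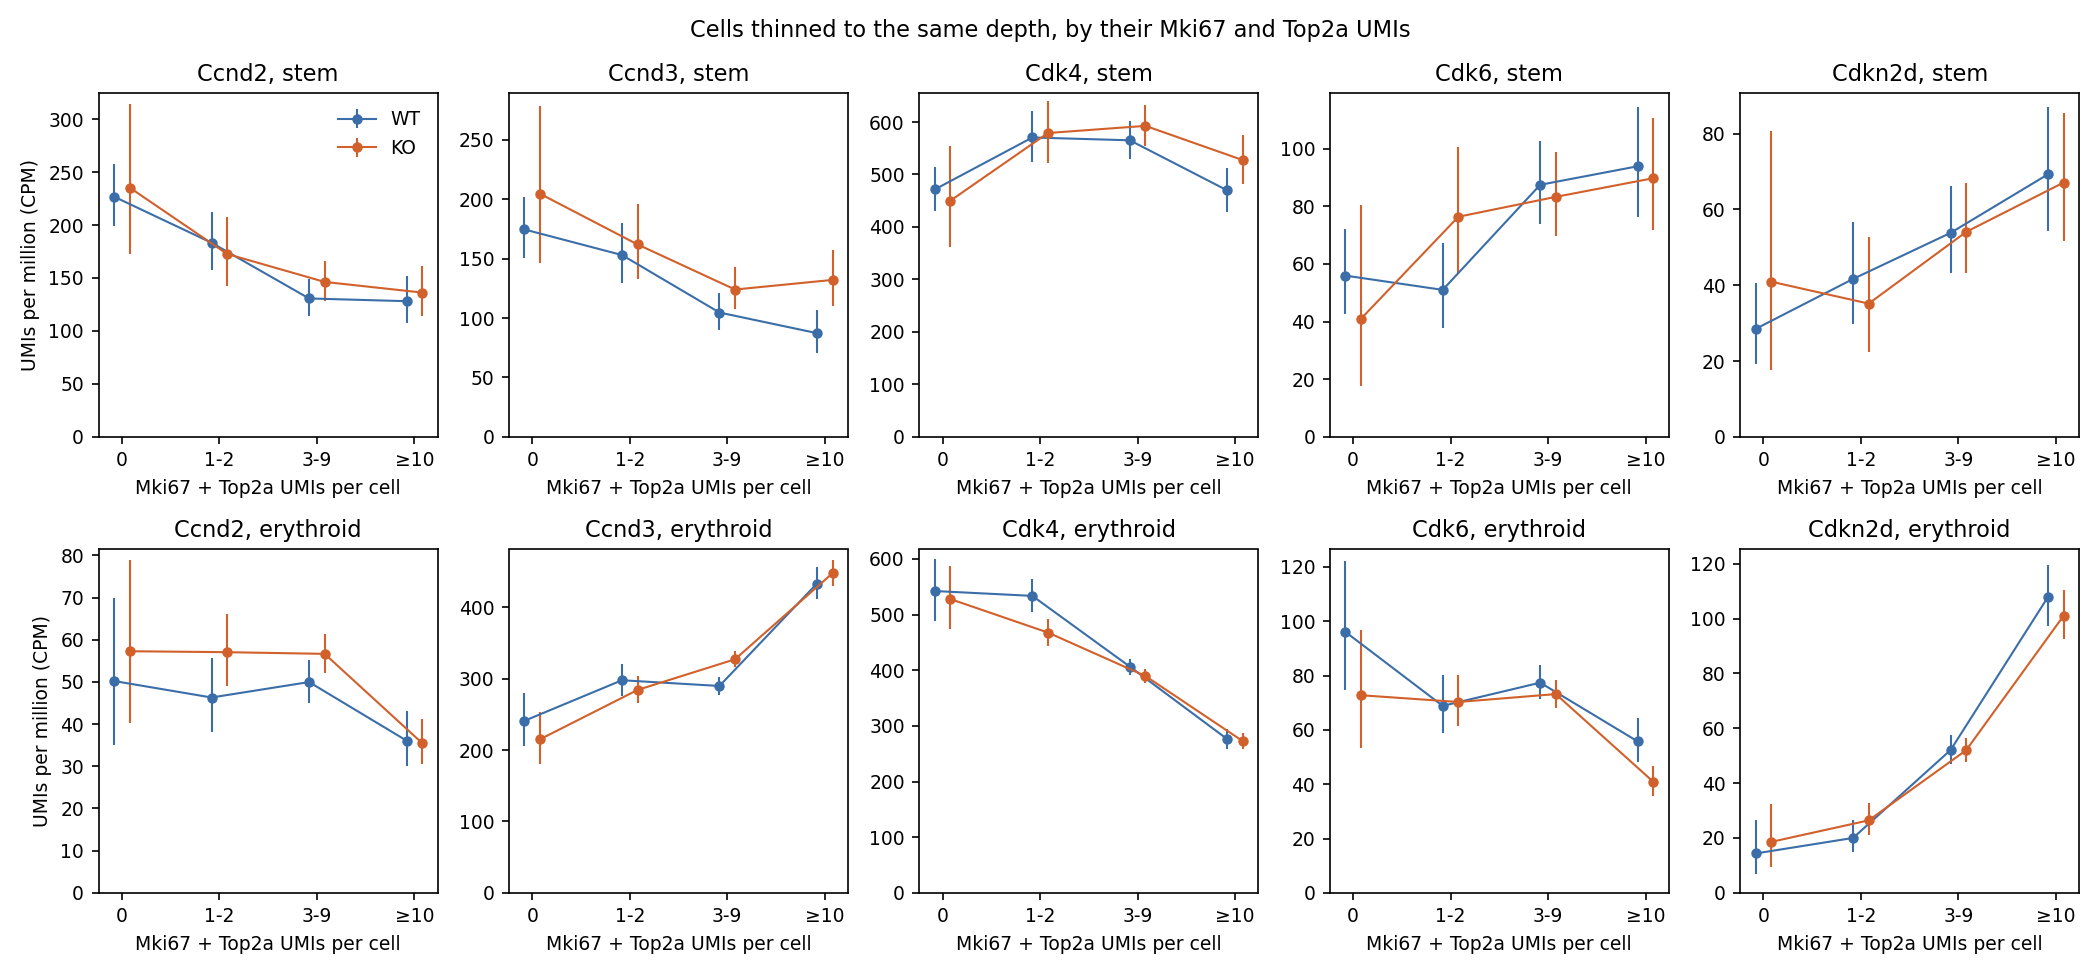
Lines give CPM of members (y axis) over cells with 0, 1 to 2, 3 to 9 and 10 or more UMIs of Mki67 and Top2a together (x axis), all thinned to 8500 UMIs, for stem-gated and erythroid-gated cells of WT and KO, with exact 95% counting intervals. Ccnd3 goes down from 175 to 87.3 CPM in WT stem-gated cells and up from 241 to 433 in WT erythroid-gated cells, whereas Cdkn2d goes up in both.

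The question of the series was how loss of IκBα changes these cells, and in stem-gated cells the G1 genes differed little between the libraries. The KO minus WT log2 differences were -0.08 (-0.19 to 0.03) for Ccnd1, -0.02 (-0.14 to 0.09) for Ccnd2 and 0.10 (-0.02 to 0.22) for Ccnd3. Cdk4 was higher in KO by 0.07 (0.01–0.13), the one member whose interval left out 0. Cdk6 was at -0.13 (-0.27 to 0.02). The intervals of these 5 genes leave out a difference of 25% (the higher library over the lower). Cdkn1b was at -0.10 (-0.42 to 0.21), Cdkn2d at 0.03 (-0.16 to 0.22), Rb1 at -0.26 (-0.88 to 0.35) and Cdkn1a at 0.20 (-0.55 to 0.94), and the intervals of the last pair reach past a 1.5-fold difference.

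Counted by fold, 0 of the 7 members with at least 200 UMIs in both libraries together differed by 25% or more, beside 2.37% of 7174 genes higher and 3.05% lower in KO. Their median log2 difference was -0.02, and that of all these genes 0.02. Of the 18 S phase targets, 0 passed the mark, and of 17 later cyclins and kinases 1 did, the phosphatase gene Cdc25b, higher in KO. Of 10 pocket proteins and E2F factors 2 passed it, of 5 p53 targets 1 (Btg2, higher in KO), and of 2 other CDK inhibitors 1, all higher in KO. Cdkn3, a phosphatase that acts on CDKs, was higher by 0.65, Rbl1 (p107), the pocket protein of cycling cells, by 0.43 and the repressor E2f8 by 0.39, while Cdkn1c stood at 101 CPM in WT and 89.9 in KO, a log2 difference of -0.17 (-0.32 to -0.03).

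In the stem-gated cells without Mki67 or Top2a, Cdk4 stood at 467 CPM in WT and 387 in KO, a log2 difference of -0.27 (-0.50 to -0.05), against the positive value over all stem-gated cells. Cdk6 was at -0.59 (-1.33 to 0.10) on 76 and 23 UMIs. The KO cells of this kind were shallower, with medians of 7405 against 11430 UMIs, and whether that bears on the levels was not tested.

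Outside the stem gate some D cyclin differences left out 0. In multipotent-gated cells Ccnd2 stood at 107 CPM in WT (424 UMIs) and 144 in KO (549 UMIs), a log2 difference of 0.44 (0.25–0.62), beside 9.41% of genes higher by 25% or more and 2.82% lower. Mki67 and Top2a stood at 110 and 315 CPM in WT and at 152 and 454 CPM in KO in these cells, and their part in it was not tested. With cells gated after thinning to 8500 UMIs the Ccnd2 difference was 0.08. Ccnd3 was lower in the KO cells of this gate, at -0.18 (-0.35 to -0.00), and Cdkn1b higher by 0.88 (0.07–1.73) on 21 and 37 UMIs. In erythroid-gated cells all 3 D cyclins were higher in KO beyond counting error. Ccnd1 was at 12.2 CPM in WT and 14.2 in KO, a log2 difference of 0.22 (0.08–0.36), Ccnd2 was higher by 0.13 (0.07–0.20) and Ccnd3 by 0.17 (0.14–0.21). Among female cells only, the Ccnd1 difference was -0.02 (-0.19 to 0.15), and those of Ccnd2 and Ccnd3 were 0.15 and 0.15. Both kinases lay lower, Cdk4 at -0.06 (-0.09 to -0.04) and Cdk6 at -0.10 (-0.16 to -0.05), and Cdkn2d was higher by 0.15 (0.07–0.23). These differences were all short of the 25% mark, which 3.15% of genes passed upwards and 2.20% downwards. Cdkn1a there had 70 UMIs in WT and 107 in KO, a log2 difference of 0.67 (0.22–1.13), with 17 of the 107 in 1 cell, and the difference was 0.31 (-0.21 to 0.83) without the cells called as doublets.

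Neutrophil-gated cells had Ccnd1 at 34.7 CPM in WT and 44.8 in KO, a log2 difference of 0.37 (0.09–0.65), beside 4.05% of genes higher and 3.26% lower. Cdk6 there was at -0.20 (-0.33 to -0.07). Monocyte-gated cells, only 70 and 71 in number, had Ccnd3 higher by 0.30 (0.06–0.55) and Ccnd2 lower at -0.26 (-0.49 to -0.03), beside 4.82% and 3.76%. In lymphoid-gated cells Cdk6 was at 0.19 (0.04–0.34), beside 4.83% and 3.39%, and this sign turned under stricter gates. Several gates were met by 37.1% of WT and 29.4% of KO neutrophil-gated cells, and by 37.1% and 22.5% of monocyte-gated cells. For lymphoid-gated cells it was 28.7% and 16%, and the part of this overlap in the differences was not tested. No member kept 1 direction beyond counting error across all the blood gates.

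Megakaryocyte-gated cells numbered 47 in WT and 88 in KO. Cdkn2d stood at 150 and 207 CPM, a log2 difference of 0.47 (0.26–0.68), and Cdk6 at 121 and 91.3 CPM, a difference of -0.41 (-0.68 to -0.14), beside 7.01% of genes higher and 5.05% lower. Ccnd1 was at 0.64 (0.16–1.14) on 50 and 130 UMIs, of which 18 and 41 were in 3 cells, at 0.35 (-0.15 to 0.87) without called doublets and at -0.23 (-0.87 to 0.43) in cells meeting 1 gate. Of these cells, 44.7% in WT and 39.8% in KO met several gates. A red cell transcript moved with the same comparison, Hbb-bt being at 162 CPM in WT and 1546 in KO, and its part was not tested. Cdkn1a had 7 UMIs in WT and 51 in KO, but 35 of the 51 came from 1 cell and 44 from 3 cells, which left 7 in all the others.

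Macrophage-gated cells, 39 in WT and 86 in KO, had the highest Cdkn1a of the gates compared, with 26 UMIs in WT and 86 in KO, a log2 difference of 1.36 (0.71–2.05). It was found in 11 of the WT and 36 of the KO cells. In WT, 18 of the 26 UMIs were in 3 cells. Rb1 was at 1.12 (0.03–2.32) on 10 and 28 UMIs. Lower in KO were Ccnd2 at -0.54, Ccnd3 at -0.50, Cdk4 at -0.26, Cdk6 at -0.62 and Cdkn2d at -0.87, all with intervals that left out 0, beside 16.3% of genes higher and 9.42% lower. In WT the top 3 cells of each gene held 46 of 97, 80 of 222, 143 of 664, 57 of 128 and 28 of 68 UMIs, in this order. In KO they held 23 of 86, 48 of 203, 122 of 716, 25 of 108 and 12 of 48. Mki67 stood at 326 and 202 CPM and Top2a at 429 and 312 CPM in the macrophage-gated cells. Since most of these cells met another gate too, any mixture of cells and the genotype cannot be told apart.

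**Figure D5:**
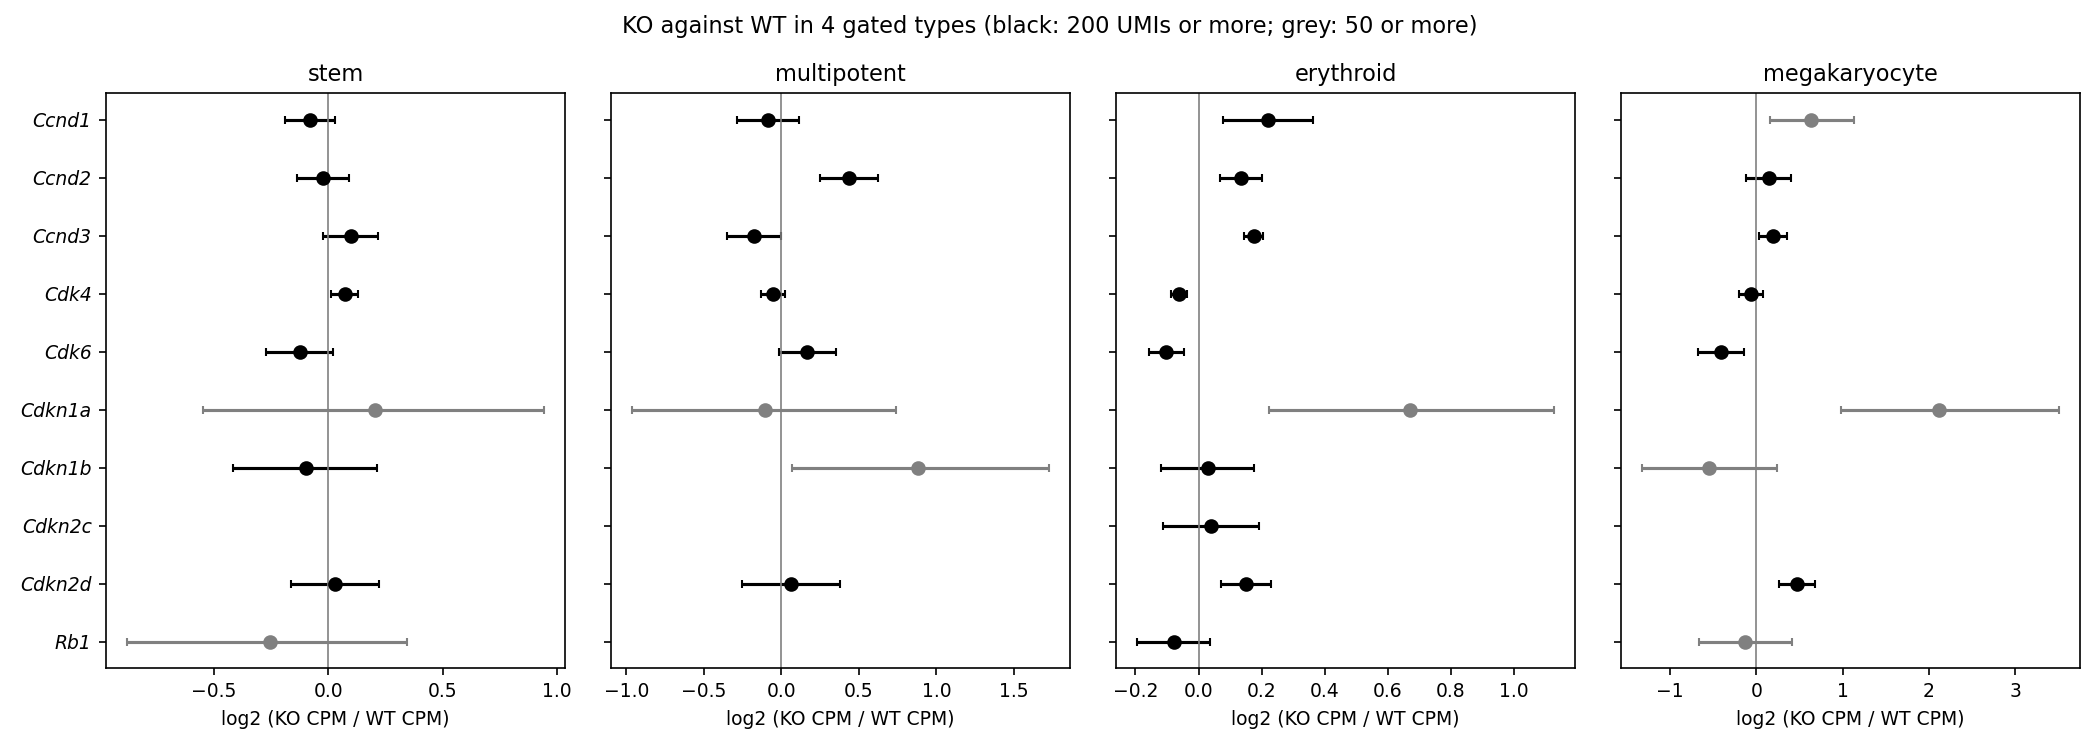
Points give the log2 ratio of KO to WT CPM (x axis, its range set per panel) for members (y axis) with at least 50 UMIs in 4 gated types, black from 200 UMIs on, with bars for the exact 95% counting interval. Stem-gated values of the D cyclins and kinases lie between -0.13 and 0.10, while Ccnd1 is at 0.22 in erythroid-gated, Ccnd2 at 0.44 in multipotent-gated and Cdkn2d at 0.47 in megakaryocyte-gated cells.

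Endothelial-gated and hepatocyte-gated cells numbered 60 and 42 in WT and 73 and 70 in KO. Cdk4 was higher in KO endothelial-gated cells by 0.30 (0.13–0.47), beside 11.7% of genes higher and 6.94% lower, and Cdk6 by 0.62 (0.04–1.21) on 41 and 70 UMIs, of which 20 and 36 were in 3 cells. Kit stood there at 7.21 CPM in WT and 34.9 in KO, Hbb-bt at 2996 and 880 and Top2a at 294 and 418, and their part was not tested. In hepatocyte-gated cells Cdk6 was higher by 0.58 (0.20–0.97) and Ccnd3 at -0.39 (-0.64 to -0.14), beside 10.2% and 7.71%. Hbb-bt was at 3305 and 1132 CPM in these cells, and 4.76% and 17.1% of them were called as doublets. Without those, Ccnd3 was at -0.20 (-0.49 to 0.09). Ccnd1, the leading D cyclin of both gates, was at -0.07 (-0.28 to 0.14) and 0.08 (-0.11 to 0.26).

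As a description over 10 gated types, which share their library and depth, Pearson's r between WT and KO log levels was 0.993 for Ccnd1 and between 0.686 (Cdkn1a) and 0.948 (Cdkn2c) for the others. A further comparison ran over 22 points, which were types by library, split by Mki67 or Top2a. Only stem-gated cells had enough UMIs for a point without these transcripts. Among 5447 genes, the gene with the pattern closest to Ccnd1 was Tsen34 (r = 0.909), to Ccnd2 Bmyc (0.909), to Ccnd3 Tal1 (0.871), to Cdk4 Glrx3 (0.906), to Cdk6 Cst7 (0.873) and to Cdkn2d Unc119 (0.937). Among pairs of members, Ccnd3 and Rb1 were closest (0.82), Cdk6 and Cdkn1b were opposed (-0.73), and Cdk4 and Cdk6 stood at 0.60. The points share cells of the same library and are not independent.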

How the data were processed

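Raw UMI counts per gene and cell were deposited by the authors as 1 filtered 10x matrix per library (3′ v3 chemistry), made with Cell Ranger 6.0.0 on mm10 (GRCm38) per the labels and the submitters' processing notes. The setting for strand is not given in the sources used here. Barcodes with fewer than 1000 genes or over 20% mitochondrial UMIs were left out. Scrublet, run through scanpy 1.11.5 with 5% set as the expected share of doublets, marked 3.47% of WT and 5.23% of KO cells as doublets. They were kept, and leaving them out was an alternative. A cell went to the type with the highest share of its markers above the gate (3 of 8 for stem, monocyte, 4 of 8 for lymphoid, neutrophil, megakaryocyte, macrophage and endothelial, 5 of 8 for hepatocyte, 3 of 7 for mast, 5 of 9 for erythroid, 2 of 3 for multipotent). The multipotent gate also required that no other gate was met and that Hlf and Mecom had no UMI. Since each gate counted markers with a UMI, all gates depend on depth, and so does this condition. Ties stayed ungated, and the mast gate (9 and 6 cells) was not compared. A finer division of the erythroid-gated cells is not reported here. Gate thresholds were settled after marker detection was seen, and members and lists were chosen with earlier results of these data known.

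UMIs were summed per type and library as CPM with exact Poisson intervals, and ratios had exact conditional (Clopper-Pearson) intervals. These treat each UMI as independent, so they do not cover variation between cells of a library. Nor do they cover variation between embryos or preparations, for which there were no replicates. Fold marks (25% for KO against WT, 1.5-fold for the split by Mki67 and Top2a) were applied to genes with at least 200 UMIs. All 10 members were named in every type, with lists for other CDK inhibitors, pocket proteins and E2F factors, later cyclins and kinases, S phase targets of E2F and p53 targets. Nearest genes had the highest Pearson correlation of log2(CPM + 1) among genes with a mean of at least 20 CPM, over points with at least 500000 UMIs. Python 3.11.15, numpy 2.4.6, scipy 1.17.1 and pandas 2.3.3 were used, and the code was tested on simulated counts. Promoter sequences are RefSeq's. Alternatives were stricter cell filters, doublets removed, female cells only, stricter gates, other CPM totals, thinned counts and other splits by Mki67 and Top2a.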

Additional observations from a re-analysis of the deposited data

Results flagged for a closer look

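For 3 members the KO minus WT log2 difference had opposite signs in 2 gates, among differences of 25% or more on at least 100 UMIs with an interval that left out 0. For each member the most distant pair of gates is given, and the differences between gates were not tested. Ccnd2 was at 0.59 in hepatocyte-gated and -0.54 in macrophage-gated cells, 1.14 apart. Cdk6 was at 0.62 in endothelial-gated and -0.62 in macrophage-gated cells, 1.23 apart. Cdkn2d was at 0.47 in megakaryocyte-gated and -0.87 in macrophage-gated cells, 1.34 apart. Each rests on a gate with fewer than 100 cells per library.

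With only cells that met 1 gate, the macrophage-gated intervals were -8.22 to 1.13 for Ccnd2 and -2.15 to 2.70 for Cdk6, so these cells set no sign. In the same cells Ccnd2 was at -1.14 (-2.84 to 0.38) in hepatocyte-gated and Cdk6 at -1.59 (-3.45 to 0.01) in endothelial-gated cells.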

How the results depend on the processing

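No paired analysis was possible because a single library stood for WT and another for KO. Alternative values on fewer than 50 UMIs are not counted here. Cells meeting 1 gate, gates on thinned cells, cells of at least 8500 UMIs and thinning to 4000 UMIs were alternatives added after seeing the data. Of 900 alternative values for the KO against WT log2 differences of members, 850 stayed within the counting interval of the main value. A further 38 moved out of it, and 12 turned, meaning that the sign changed where the main interval left out 0. Where that interval held 0, a change of sign was not counted as a turn. For differences with against without Mki67 or Top2a, 87 of 90 stayed within the interval, 3 moved and 0 turned.

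The log2 differences that turned were, with 1 more marker per gate, Cdk6 in lymphoid-gated cells (-0.0028) and, with female cells, Ccnd1 in erythroid-gated cells (-0.020). With only cells without Mki67 or Top2a they were Cdk4 in stem-gated (-0.27), neutrophil-gated (0.056), erythroid-gated (0.095) and macrophage-gated cells (1.22), and Ccnd3 in multipotent-gated (0.25) and megakaryocyte-gated cells (-0.21). With only cells meeting 1 gate they were Ccnd1 in megakaryocyte-gated (-0.23) and Ccnd3 in endothelial-gated cells (0.073). With gates on thinned cells they were Ccnd3 in multipotent-gated (0.035) and Cdk6 in lymphoid-gated cells (-0.13). The cause was not tested.

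In stem-gated cells without Mki67 or Top2a the median log2 difference of the members was -0.15 and 2 of 7 differed by 25% or more. These were Cdk6 at -0.59 (-1.33 to 0.10) on 76 and 23 UMIs and Cdkn2d at 0.58 (-0.12 to 1.26) on 47 and 32. Both lay under the minimum of 200 UMIs here, and both intervals held 0. The shares of all genes past the marks were not taken for the alternatives in this paragraph. The WT count of members higher 1.5-fold with Mki67 or Top2a was 2 with the split on thinned cells, with at least 3 UMIs and with female cells, and the count lower was 0 with cells meeting 1 gate. In KO the count higher was 2 with female cells, and the count lower was 1 with the thinned split, with at least 3 UMIs, with CPM leaving out haemoglobin, mitochondrial and ribosomal genes, and with female cells. The share of stem-gated cells with either gene was 81.6% as sequenced and 66.5% at 4000 UMIs in WT, and 84.2% and 74.1% in KO, against 77.9% and 94.2% at 8500.

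Depth limits the low members most. In stem-gated cells Cdkn1a, Cdkn2c and Rb1 had fewer than 100 UMIs per library.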
